A study of Sus scrofa with 6 samples.

Results

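The genes described here encode 4 enzymes listed under ketone body utilisation: BDH1, BDH2, OXCT1 and ACAT1. They were taken by gene symbol, and all 4 were found among the 13288 genes of the table. The unit is FPKM, which relates fragments to transcript length and sequencing yield, measured in ventricular tissue of 3 sham and 3 DAC Tibetan minipigs. The animals were male, and the tissue was collected at week 12 after surgery. In the DAC group the descending aorta was constricted by a suture. The sham group had the same thoracotomy without constriction, so both groups went through anesthesia and opening of the chest. The ages of the animals and the part of the ventricle sampled for sequencing are not given in the sources used here. The study uses the DAC animals to model the form of heart failure in which the ejection fraction is kept, under lasting pressure overload and in a single minipig breed. Each sample is 1 minipig. Sham animals carry the replicate numbers 1 to 3, and DAC animals 4 to 6.

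Ketone bodies are made in the liver from fatty acids and reach the heart through the blood. Monocarboxylate carriers bring β-hydroxybutyrate and acetoacetate into the cell. In the mitochondrion, BDH1 oxidises β-hydroxybutyrate to acetoacetate, OXCT1 moves coenzyme A from succinyl-CoA onto acetoacetate, and ACAT1 splits the resulting acetoacetyl-CoA into acetyl-CoA for the citrate cycle. OXCT1 is the step that the liver lacks, which is why the liver exports ketone bodies and does not burn them. BDH2 is a cytosolic member of the same dehydrogenase family as BDH1. The failing heart is known to draw more on ketone bodies as a fuel, which makes the levels of these enzymes under pressure overload a question of interest.

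None of the 4 enzymes passed the test for a difference between DAC and sham myocardium. From sham to DAC, the difference in mean FPKM was -14.4% for BDH1, -4.12% for OXCT1, -10.1% for ACAT1 and 10.8% for BDH2. By limma's moderated test on log2(FPKM + 1), 0 of the 4 had an unadjusted P under 0.05, the threshold of the study for a differentially expressed gene (DEG), against 8.51% of the 11029 genes tested. The sham and DAC values overlapped for all 4 enzymes, while they did not overlap for 14.9% of the genes tested, with the DAC group lower in 8.91% and higher in 6.01%. A log2 fold change here is the DAC mean of log2(FPKM + 1) minus the sham mean, a scale on which changes of low genes come out too small. Adjusted P values follow Benjamini and Hochberg and cover the 11029 genes. The exact two-sided permutation P over the 6 minipigs was 0.5 for BDH1, 0.3 for BDH2, 0.9 for OXCT1 and 0.2 for ACAT1, and 3 minipigs against 3 cannot give a value under 0.1. The deposited FPKM carry no read counts, so the depth behind a value is unknown and no counting error is given.

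**Figure D1:**
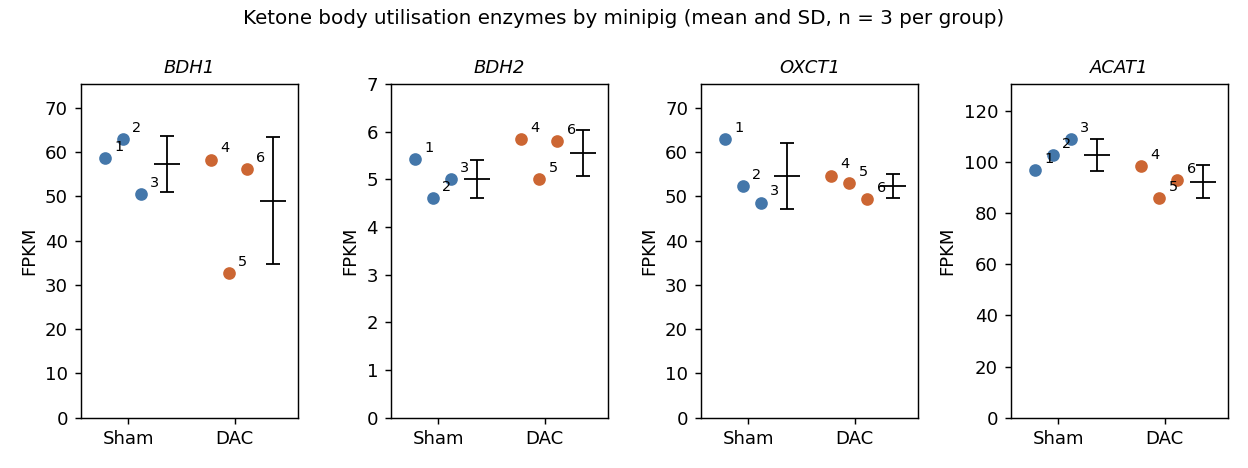
FPKM of BDH1, BDH2, OXCT1 and ACAT1 in each minipig (points, numbered by replicate), with the mean and SD of the 3 sham and the 3 DAC minipigs as bars beside them; each vertical axis starts at 0. The groups overlap for every enzyme, and BDH1 in DAC replicate 5, at 32.6 FPKM, lies apart from the 5 other values.

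The entry step stood out by 1 animal. BDH1 (ENSSSCG00000024109, chromosome 13 from 132605489 to 132645938, plus strand) was at 58.6, 62.9 and 50.4 FPKM in sham replicates 1, 2 and 3. In DAC replicates 4, 5 and 6, BDH1 was at 58.3, 32.6 and 56.2 FPKM. Replicates 4 and 6 lay within the range of the sham animals, and replicate 5 was 35.4% below the lowest of the 5 other minipigs. The group means were 57.3 ± 6.33 FPKM (SD, n = 3) in sham and 49.0 ± 14.3 FPKM (SD, n = 3) in DAC. The log2 fold change of BDH1 was -0.26 (standard error 0.23, 95% interval -0.80 to 0.28, adjusted P = 0.758 from limma). On the scale of FPKM + 1, that interval runs from 0.576-fold to 1.21-fold of the sham level, and it includes differences in both directions. Without DAC replicate 5, the mean of the DAC group was 57.3 FPKM and the log2 fold change was 0.0042 (95% interval -0.31 to 0.32, adjusted P = 0.993 from limma).

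The low BDH1 value came from the library that differed most from the rest in its content of mitochondrial transcripts. The 13 mitochondrially encoded genes held 32.8% of the summed FPKM in DAC replicate 5, between 27.1% and 27.2% in DAC replicates 6 and 4, and between 24.0% and 25.3% in the sham samples. After removal of these genes and rescaling of the remainder to 1 common sum per sample, BDH1 was at 33.3 FPKM in DAC replicate 5 and between 49.5 and 61.8 FPKM in the other minipigs. The distance of DAC replicate 5 was about as large after the rescaling, which multiplies all remaining genes of a sample by the same factor. Whether the content of this library bears on its low BDH1 value was not tested. The mitochondrial share was also higher in each DAC sample than in each sham sample. With these genes left out, the log2 fold changes were -0.22 for BDH1, 0.16 for BDH2, -0.0088 for OXCT1 and -0.11 for ACAT1. On the log2 scale, the distance of BDH1 in DAC replicate 5 from the mean of the other minipigs was -0.79, and 2.17% of the tested genes lay as far or farther below in that library. DAC replicate 5 held the lowest value of the 6 for BDH1 and ACAT1, that is for 2 of the 4 enzymes, against 23.6% of all genes tested.

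The coenzyme A transfer step had the smallest relative difference in means of the 4. OXCT1 (ENSSSCG00000016863, chromosome 16 from 26512396 to 26659845, minus strand) was at 62.9, 52.3 and 48.6 FPKM in sham replicates 1, 2 and 3. It was at 54.6, 53.0 and 49.4 FPKM in DAC replicates 4, 5 and 6. All 3 DAC values fell inside the range of the sham animals, whose highest value was that of replicate 1. The means were 54.6 ± 7.41 FPKM (SD, n = 3) in sham and 52.3 ± 2.70 FPKM (SD, n = 3) in DAC. The log2 fold change of OXCT1 was -0.053 (standard error 0.12, 95% interval -0.34 to 0.24, adjusted P = 0.921 from limma). Its sign rested on sham replicate 1, without which the log2 fold change was 0.052. In fold terms, the interval for all 6 minipigs spans 0.787 to 1.18 of the sham level.

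The thiolase step was the most abundant of the 4 and had the smallest P. ACAT1 (ENSSSCG00000026153, chromosome 9 from 36525261 to 36545633, plus strand), which also works in the breakdown of isoleucine, was at 96.8, 102.7 and 109.0 FPKM in sham replicates 1, 2 and 3. It was at 98.5, 85.8 and 92.9 FPKM in DAC replicates 4, 5 and 6. DAC replicates 5 and 6 were lower than all sham animals, and DAC replicate 4 lay just above sham replicate 1. The means were 102.8 ± 6.08 FPKM (SD, n = 3) in sham and 92.4 ± 6.36 FPKM (SD, n = 3) in DAC. For ACAT1 the log2 fold change was -0.15 (standard error 0.10, 95% interval -0.40 to 0.093, adjusted P = 0.701 from limma). It was negative in each of the 14 alternatives on a log2 scale, between -0.20 and -0.073, and closest to 0 after quantile normalization. Among all genes tested, 43.6% had a larger log2 fold change in either direction.

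BDH2 (ENSSSCG00000022282, chromosome 8 from 117969998 to 117995215, plus strand), the cytosolic dehydrogenase, was the only one of the 4 whose mean was higher in DAC. Its values were 5.42, 4.61 and 4.998 FPKM in sham replicates 1, 2 and 3, and 5.84, 4.997 and 5.81 FPKM in DAC replicates 4, 5 and 6. DAC replicates 4 and 6 were above all sham animals, and DAC replicate 5 lay among them. The means were 5.01 ± 0.404 FPKM (SD, n = 3) in sham and 5.55 ± 0.477 FPKM (SD, n = 3) in DAC. For BDH2 the log2 fold change was 0.12 (standard error 0.11, 95% interval -0.14 to 0.38, adjusted P = 0.764 from limma). It was positive in each of the 14 alternatives on a log2 scale, between 0.075 and 0.19, and largest without DAC replicate 5.

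**Figure D2:**
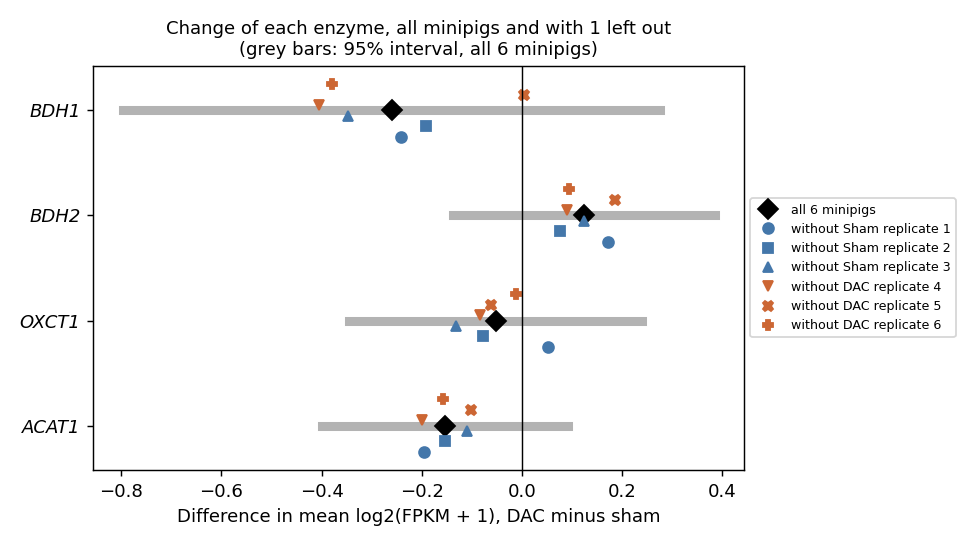
Difference in mean log2(FPKM + 1), DAC minus sham, for the 4 enzymes on the vertical axis: diamonds are all 6 minipigs with their 95% interval as a grey bar, and the other symbols leave out 1 minipig each. Every interval includes 0; BDH1 moves from -0.26 to 0.0042 without DAC replicate 5, and OXCT1 from -0.053 to 0.052 without sham replicate 1.

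Because FPKM is scaled by transcript length, the levels of the 4 enzymes can be set against each other. ACAT1 had the highest FPKM of the 4 in 6 of 6 minipigs, and BDH2 had the lowest in 6 of 6. BDH1 and OXCT1 lay between them at like levels: BDH1 was above OXCT1 in 4 minipigs and below it in sham replicate 1 and DAC replicate 5, so the order of these neighbours was within their spread. Ranked by FPKM among the 13288 listed genes of each sample, ACAT1 was between place 300 and place 376, BDH1 between 554 and 1085, OXCT1 between 552 and 745, and BDH2 between 5558 and 6411. The 3 mitochondrial enzymes were thus among the more abundant transcripts of the ventricle, and BDH2 was near the middle of the listed genes.

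Ratios between the enzymes within a sample do not depend on how the samples are scaled. The ratio of BDH1 to BDH2 in FPKM was 10.8, 13.6 and 10.1 in sham replicates 1, 2 and 3, and 9.99, 6.52 and 9.68 in DAC replicates 4, 5 and 6. The groups did not overlap, but the highest DAC value and the lowest sham value were nearly equal. For ACAT1 to BDH2 the ratio was 17.9, 22.3 and 21.8 in the sham animals and 16.9, 17.2 and 16.0 in the DAC animals, again with no overlap. These were 2 of the 6 pairs of enzymes. Both were ratios to BDH2, and the groups overlapped for OXCT1 to BDH2. Among all other genes tested, the ratio to BDH2 did not overlap between the groups in 19.7%, and in 18.4% it was lower in the DAC group, and no test was made for these pairs. OXCT1 to BDH1, the ratio of the middle step to the entry step, was 1.07, 0.832 and 0.963 in sham and 0.937, 1.63 and 0.878 in DAC replicates 4, 5 and 6. It was highest in DAC replicate 5, the animal with the low BDH1, and the groups overlapped.

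The other genes of the pathway were taken from 7 lists of 43 genes, of which 36 were in the table and 32 were tested. Of the 32, 3 were downregulated DEGs after DAC and 1 was upregulated, against 5.27% and 3.25% of all genes tested. Their median log2 fold change was -0.051, and that of all genes tested was -0.016. The sham and DAC values did not overlap in 6 of the 32, with the DAC group lower in each, and in 8.91% of all genes tested in that direction. No gene of these lists had an adjusted P under 0.05, and neither did any of the 11029 genes tested, where the smallest adjusted P was 0.106.

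**Figure D3:**
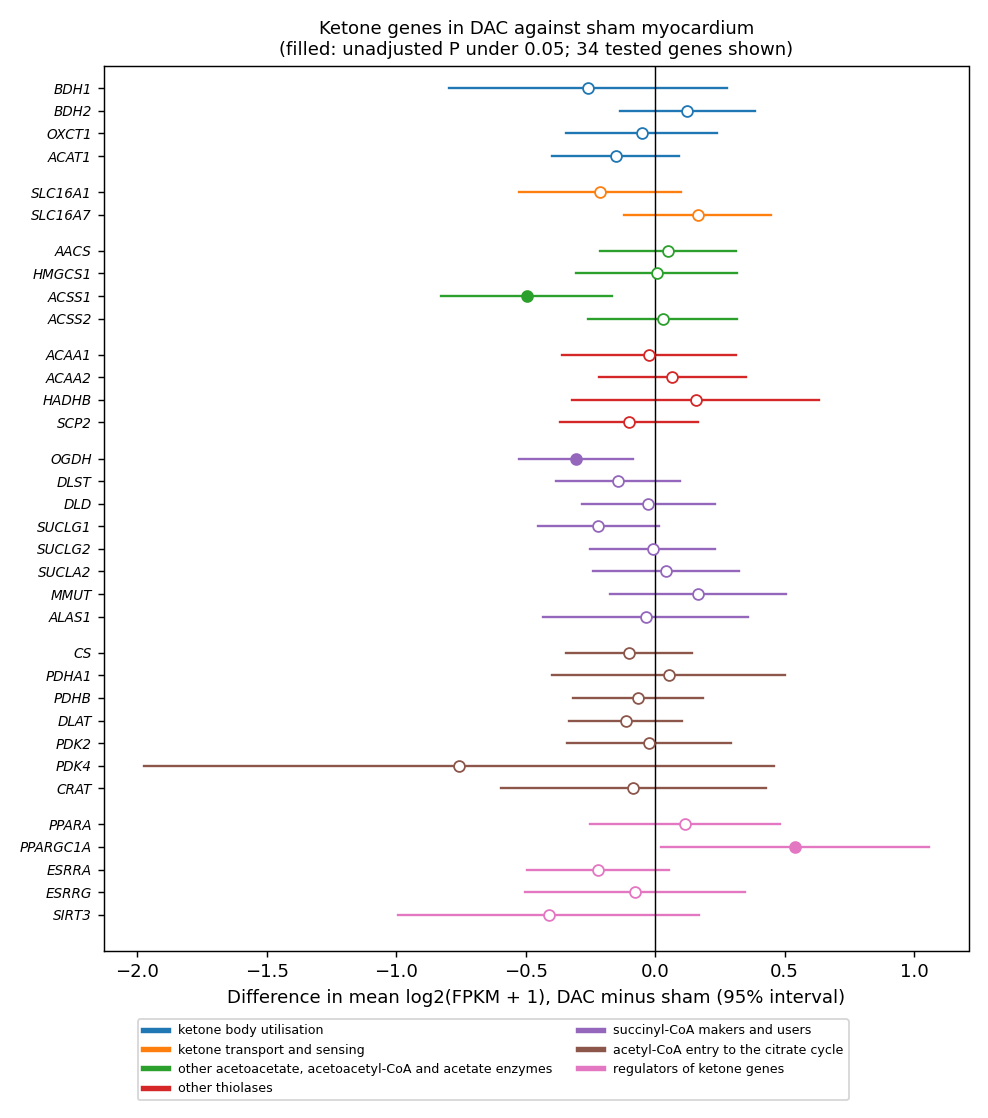
Difference in mean log2(FPKM + 1), DAC minus sham, with its 95% interval for the 4 enzymes and other tested pathway genes on the vertical axis, coloured by list; filled points have an unadjusted P under 0.05 by limma. The filled points are ACSS1 and OGDH, lower in the DAC group, and PPARGC1A, higher in the DAC group, and all 4 ketone body utilisation enzymes are open points.

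Of the carriers, SLC16A7 (MCT2) and SLC16A1 (MCT1), which let ketone bodies, lactate and pyruvate cross the cell membrane, were expressed in all samples. SLC16A7 was at 29.6, 32.8 and 26.8 FPKM in sham and 33.4, 30.4 and 36.5 FPKM in DAC, and the groups overlapped (log2 fold change 0.16, adjusted P = 0.714 from limma). SLC16A1 was at 22.0, 16.8 and 21.5 FPKM in sham and 17.5, 15.8 and 18.1 FPKM in DAC, with a log2 fold change of -0.21 (adjusted P = 0.676 from limma). The low sham value of replicate 2 lay among the DAC values, and without this animal SLC16A1 was a DEG with a log2 fold change of -0.33. SLC16A3 (MCT4), a lactate exporter of glycolytic tissue, and SLC16A6 had at most 1.13 and 1.25 FPKM in any sample, and both fell under the minimum for testing of 1 FPKM in at least 3 samples. No row carried the symbols of the carrier chaperones BSG and EMB or of the ketone body receptors HCAR2 and FFAR3.

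Other enzymes of acetoacetate and acetoacetyl-CoA were present at far lower levels than the mitochondrial pair. AACS, which activates acetoacetate in the cytosol for lipid synthesis, was between 2.26 and 2.77 FPKM over all samples (log2 fold change 0.050, adjusted P = 0.915 from limma). The FPKM of OXCT1 was 22.0 ± 3.48 times that of AACS in the sham group and 20.2 ± 2.41 times in the DAC group (SD, n = 3 each). ACAT2, the cytosolic counterpart of ACAT1, was between 0.680 and 0.931 FPKM and was not tested. The ratio of ACAT1 to ACAT2 in FPKM was 128 ± 23.6 in sham and 126 ± 19.0 in DAC (SD, n = 3 each). ACAT2 also shares its annotated position in part with TCP1. Among the other thiolases, HADHB, the thiolase subunit of the trifunctional protein of fatty acid oxidation, was at a level like that of ACAT1, between 85.4 and 148 FPKM. Its log2 fold change was 0.16 (adjusted P = 0.847 from limma). Of the 4 other thiolases tested, 0 were DEGs, against 8.51% of all genes tested.

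**Figure D4:**
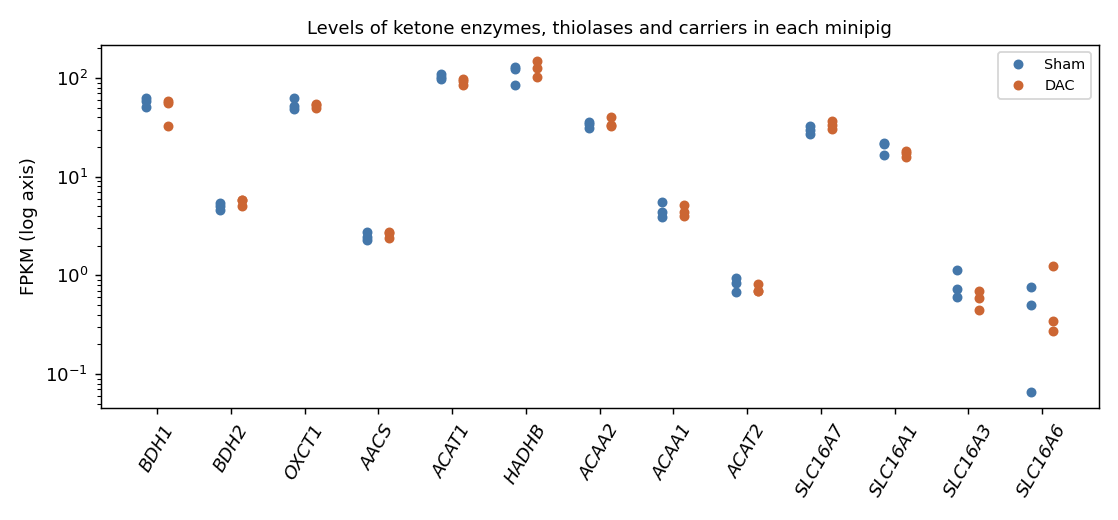
FPKM on a log axis of ketone body enzymes, thiolases and monocarboxylate carriers in each minipig, sham at the left and DAC at the right of each gene. ACAT1, BDH1 and OXCT1 lie between 32.6 and 109.0 FPKM, BDH2 near 5 FPKM, and the cytosolic thiolase ACAT2 under 1 FPKM in all 6 samples.

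Of the 4 tested genes in the list of other acetoacetate, acetoacetyl-CoA and acetate enzymes, 1 was a DEG, against 8.51% of all genes tested. This was ACSS1, a mitochondrial enzyme of acetate and not of ketone bodies. ACSS1 was at 44.8, 45.2 and 38.4 FPKM in sham and 33.2, 25.1 and 32.4 FPKM in DAC, with no overlap. The difference was -0.50 on the log2 scale (standard error 0.14, unadjusted P = 0.00915, adjusted P = 0.50 from limma), and ACSS1 was a DEG in 15 of 15 alternatives. OXCT1 needs succinyl-CoA, and among the 8 genes that make or use it, OGDH was the 1 DEG, against 8.51% of all genes tested. OGDH, the first subunit of the complex that produces succinyl-CoA in the citrate cycle, was at 125.4, 117.7 and 126.9 FPKM in sham and 98.7, 103 and 96.5 FPKM in DAC, with each DAC animal below each sham animal. The difference was -0.31 on the log2 scale (adjusted P = 0.511 from limma), and OGDH was a DEG in 14 of 15 alternatives, the exception being without sham replicate 3 (-0.29). SUCLG1, a subunit of the ligase that uses succinyl-CoA, was at 43.6, 39.9 and 44.7 FPKM in sham and 35.6, 38.5 and 35.5 FPKM in DAC. Its groups did not overlap and its unadjusted P was 0.0627 (adjusted P = 0.596 from limma).

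A further list covers acetyl-CoA and its entry into the citrate cycle. The genes named here concern pyruvate dehydrogenase, which is not a step after the thiolase. DLAT, a subunit of pyruvate dehydrogenase, was lower in each DAC animal than in each sham animal, by a log2 fold change of -0.11 (unadjusted P = 0.256, adjusted P = 0.740 from limma). PDK4, the kinase that shuts pyruvate dehydrogenase in fasting, was spread widely in the DAC group, at 52.6, 138 and 27.3 FPKM against 117, 85.6 and 99.3 FPKM in sham. The difference was -0.76 on the log2 scale with a standard error of 0.52 (adjusted P = 0.701 from limma), and -1.37 without DAC replicate 5, where PDK4 was a DEG. That is the animal with the highest PDK4 and the lowest BDH1.

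Of the 5 tested regulators of fuel genes, PPARGC1A (PGC-1α), a coactivator of mitochondrial genes, was the 1 DEG, against 8.51% of all genes tested. Its mean was higher in the DAC group. PPARGC1A was at 24.4, 25.6 and 20.1 FPKM in sham and 34.0, 25.3 and 46.7 FPKM in DAC, where replicate 5 lay within the sham range. The difference was 0.54 on the log2 scale (standard error 0.22, adjusted P = 0.584 from limma), and PPARGC1A was a DEG in 8 of 15 alternatives. With 1 minipig left out it was a DEG without DAC replicate 5 alone, and the difference was 0.32 without DAC replicate 6. ESRRA, a nuclear receptor that PPARGC1A coactivates, was lower in each DAC animal (log2 fold change -0.22, adjusted P = 0.635 from limma), and was a DEG without DAC replicate 4 (-0.29). SIRT3, a mitochondrial deacetylase, had a log2 fold change of -0.41 (adjusted P = 0.661 from limma) with overlapping groups.

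The tissue label was checked with marker lists. The 8 cardiomyocyte markers summed to between 15764 and 16854 FPKM in the sham samples and to between 15163 and 18391 FPKM in the DAC samples. Of these 8, RYR2 alone was a DEG, against 8.51% of all genes tested, and its mean was lower in the DAC group. The 8 fibroblast markers summed to between 482 and 555 FPKM in sham and between 688 and 780 FPKM in DAC. Upregulated DEGs were 5 of the 8 (COL1A1, COL1A2, COL3A1, LUM and POSTN), against 3.25% of all genes tested. DCN, PDGFRA and TCF21 were not DEGs, with log2 fold changes of -0.012, 0.24 and -0.022. In each of the 7 other marker lists the sums of the groups overlapped. Of the 22 tested markers in these lists, 2 were upregulated and 2 downregulated DEGs, against 3.25% and 5.27% of all genes tested. The atrial markers MYL7 and NPPA had no row under their symbols. The other 2 atrial markers, MYL4 and SLN, summed to 2.31, 4.80 and 1.49 FPKM in sham replicates 1, 2 and 3 and to 10.7, 1.71 and 27.4 FPKM in DAC replicates 4, 5 and 6. The sum was thus higher in DAC replicates 4 and 6 than in any sham animal, while DAC replicate 5, the animal with the low BDH1, lay within the sham range. Neither gene was a DEG, and the part of atrial tissue in the values of the ketone enzymes was not tested. In such bulk tissue, fewer cells of a type and less RNA per cell cannot be told apart. The sums therefore do not measure the share of fibroblasts, and their bearing on the values of the ketone enzymes was not tested.

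For each enzyme, the genes with the most similar pattern were sought by Pearson's correlation of log2(FPKM + 1) over the 6 samples among 9957 other tested genes with a symbol. The values of all genes share the 6 libraries, so the correlations are given as a description. The genes most like BDH1 were ERF (r = 0.992), PI4K2B (r = 0.990) and WFIKKN2 (r = 0.988), and each was lowest in DAC replicate 5. For BDH2 they were NECAP2 (r = 0.983), PDGFD (r = 0.969) and EOGT (r = 0.968). GTPBP4 (r = 0.973), ZNF667 (r = 0.972) and TFEB (r = 0.968) were most like OXCT1, and each was highest in sham replicate 1. TK2 (r = 0.991), ARHGEF7 (r = 0.989) and LZTS3 (r = 0.980) were most like ACAT1. A correlation above 0.95 was found with 39 genes for BDH1, 19 for ACAT1, 12 for BDH2 and 10 for OXCT1.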

How the data were processed

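Ventricular RNA of 3 sham and 3 DAC minipigs was sequenced with a NEBNext Ultra kit on an Illumina HiSeq platform. The authors deposited 1 table of FPKM with a column per minipig, and no samples were pooled. The submitters' processing notes name HISAT2 and the build susScr11, without versions. The quantification program is not given in the sources used here. The positions of all 4 enzymes overlap those of the same symbols in RefSeq Sscrofa11.1. A symbol was added from a table of gene identifiers for 520 of 2440 genes without one. Summed FPKM ran from 281377 to 308771 over the samples, read numbers are unknown, and precision rests on the spread between minipigs.

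R 4.3.3 with limma 3.58.1 was used, and figures were drawn with Python 3.11.15 and matplotlib 3.10.9. The minimum for a test was 1 FPKM in 3 of 6 samples, and testing was done on log2(FPKM + 1) with a variance trend and no covariate. The moderated test was checked on simulated data with independent normal noise, so the check does not cover a library that departs from the rest. No batch is named in the labels. The named genes are the 4 enzymes, members of the pathway lists, and for each enzyme the 3 genes of highest correlation. Some genes of the lists count in the totals but are not reported here. The enzymes and lists were chosen with earlier results of these data known. Alternatives comprised all genes unfiltered, a 5 FPKM minimum, a pseudocount of 0.1, median scaling, quantile normalization, mitochondrially encoded genes left out, the variance of each gene on its own for log2 values or FPKM, sample weights, and each minipig left out.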

Additional observations from a re-analysis of the deposited data

How the results depend on the processing

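None of the 4 ketone enzymes had an unadjusted P under 0.05 under any of the 15 alternatives, and the smallest was 0.108, for ACAT1 without DAC replicate 4. With 1 minipig left out in turn, the log2 fold change of BDH1 was between -0.41 and 0.0042 and that of OXCT1 between -0.13 and 0.052, and the signs of BDH2 and ACAT1 did not change under any alternative. Over all genes, a minimum of 5 FPKM gave 579 DEGs, 165 of them higher in the DAC group, against 939 and 358, with fewer genes tested. With 1 minipig left out there were between 595 and 1019 DEGs, with between 352 and 668 lower in the DAC group. The lowest counts were those without sham replicate 1, and without sham replicate 3 there were 625 DEGs. With mitochondrially encoded genes left out, 502 genes were higher and 408 lower, so that 44.8% of the DEGs were lower against 61.9%. In the 32 other pathway genes, the variance of each gene on its own gave 0 higher and 5 lower DEGs, on log2 values as on FPKM, in place of 1 and 3, and leaving out 1 minipig gave between 0 and 2 higher and between 1 and 4 lower. Their median log2 fold change was 0.0030 under quantile normalization, -0.0066 where the mitochondrially encoded genes were removed, and -0.051 in the reported fit. HADHB was between -0.029 and 0.30 with 1 minipig left out. No paired analysis was possible because the replicate numbers of the groups are not shared. The cause of these shifts was not tested. With 3 minipigs in each group, the intervals of the 4 enzymes leave differences within the bounds given for each undetected.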

Other observations

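A gene without a symbol (ENSSSCG00000027907, chromosome 2 from 77735584 to 77743403) lies at the RefSeq position of BSG, the chaperone of the monocarboxylate carriers, on the same build. It was at 96.5, 97.7 and 117 FPKM in sham replicates 1, 2 and 3 and at 82.5, 84.1 and 95.8 FPKM in DAC replicates 4, 5 and 6. Each DAC value was lower than each sham value, as in 8.91% of all genes tested. The highest DAC value and the lowest sham value were nearly equal. This row was found after the values were seen and was not counted in the pathway lists.

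Fuel genes of DAC replicate 5 beyond BDH1 are given here for 2 genes chosen after their values were seen. CRAT, which moves acetyl units between coenzyme A and carnitine, was at 64.1 FPKM in DAC replicate 5 against 33.9 and 46.4 FPKM in DAC replicates 4 and 6. In sham, CRAT was between 46.4 and 53.0 FPKM, with DAC replicate 5 above that range and DAC replicate 4 below it. MMUT, which makes succinyl-CoA from methylmalonyl-CoA, was at 17.5 FPKM in DAC replicate 5 against 23.0 and 25.3 FPKM in DAC replicates 4 and 6. The sham values of MMUT were between 18.9 and 19.6 FPKM, with DAC replicate 5 below them and DAC replicates 4 and 6 above them. Of the 32 other pathway genes tested, DAC replicate 5 held the highest value of the 6 samples in 8 and the lowest in 5. DAC replicate 4 held the lowest value in 11 of the 32 and the highest in 0, while over all genes tested it held the lowest in 21.1% and the highest in 19.3%.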
